A study of Mus musculus with 15 samples.

Results

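The erythroid program of the liver was examined as 33 genes that are known to work in red cell precursors, taken by symbol from the table of liver RNA levels, with earlier results of these data known. All 33 were found among the 19464 rows of the table. One of them, Ank1, is listed on 2 rows, of which the second had 0 reads, so that the row with 34166 reads was used. The members comprise 5 roles, with 5 erythroid transcription factors and the erythropoietin receptor (6 genes) in the first, 7 enzymes of heme synthesis in the second, 10 proteins of the red cell membrane, its skeleton and its blood groups in the third, 4 proteins of hemoglobin handling and mitochondrial transport in the fourth, and 6 genes of terminal maturation and red cell enzymes in the last.

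The livers came from mice of mixed C57BL/6N and 129SvJ background that were either wildtype or lacked Stab1, the gene of a scavenger receptor of endothelial cells and macrophages, in all cells (Stab1-/-). They were taken at embryonic stage E17.5 (wildtype, n = 4, and Stab1-/-, n = 3) and at 2 weeks of age (n = 4 for each genotype). No agent was given to any group. Whole liver was sequenced, so that fewer cells of a type and less RNA per cell cannot be told apart. Levels are given as RPKM, the reads of a gene divided by its length and by the reads counted on genes in that library, which makes different genes comparable.

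In the fetus the liver is the main site of red cell formation, and after birth the bone marrow takes this over. Erythropoietin binds its receptor on red cell precursors and keeps them alive, while Gata1, Tal1 and Klf1 switch on the genes that precursors need. Such precursors make hemoglobin from globin chains and heme, build a membrane skeleton around spectrin, ankyrin and the anion exchanger, and lastly expel their nucleus. Heme is also made in hepatocytes for other proteins, where the first step is carried out by Alas1 in place of the erythroid Alas2.

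Reads counted on genes ranged from 9659 to 10964 in units of 1000 reads per library. Stab1 itself, the check of the genotype labels, had 301 to 443 reads in the Stab1-/- libraries against 1244 to 1868 in the wildtype ones at E17.5, and 68 to 119 against 579 to 941 at 2 weeks. All 8 hepatocyte markers were detected in both stages, with a summed level of 75068 RPKM or more in each library. Some E17.5 libraries stood apart from the others of their stage. In Stab1-/- replicate 1, 124 rows, led by genes such as Mamdc4, Apoa4 and Vil1, lay over 10 times above each of the other E17.5 libraries and took 0.318% of its reads. In wildtype replicate 2, 47 rows, led by the digestive enzyme genes Ctrb1, Pnliprp1 and Cela2a, did so and took 0.464% of its reads. In wildtype replicate 1, 13 rows, led by the muscle genes Acta1 and Myh8, did so and took 0.0149% of its reads. The counts of members are also given without these libraries below.

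Promoter sequence was available from RefSeq (GRCm38.p6) for 24 of the 33 members, as 27 windows from 250 bases before to 50 bases after a gene start. The letters that GATA factors are known to bind, AGATAA or TGATAA on either strand, were present in 12 of these 27 windows (44.4%), against 18.6% of all 32851 promoters of the same length. CACCC on either strand, which Klf1 is known to bind, was in 21 of the 27 windows (77.8%) and in 57.5% of all promoters, and both kinds were in 11 windows (40.7%) against 8.96%. These shares are a description of letters in the windows, not of binding. The 250 bases before the start are shown for 6 windows, with matches in capitals: Alas2, Epor, Klf1 and Kel hold both kinds, Gata1 itself holds CACCC without a GATA match, and Alad, the member with the smallest fall, holds a single CACCC in the window nearest the gene. A match on the opposite strand is printed as its reverse complement.
Alas2 (chrX:150547167-150547416, plus strand): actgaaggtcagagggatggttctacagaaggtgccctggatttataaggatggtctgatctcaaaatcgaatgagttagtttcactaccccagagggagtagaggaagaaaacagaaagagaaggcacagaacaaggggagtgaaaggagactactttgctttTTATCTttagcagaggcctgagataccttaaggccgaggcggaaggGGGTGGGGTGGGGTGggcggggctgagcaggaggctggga
Epor (chr9:21963577-21963826, minus strand): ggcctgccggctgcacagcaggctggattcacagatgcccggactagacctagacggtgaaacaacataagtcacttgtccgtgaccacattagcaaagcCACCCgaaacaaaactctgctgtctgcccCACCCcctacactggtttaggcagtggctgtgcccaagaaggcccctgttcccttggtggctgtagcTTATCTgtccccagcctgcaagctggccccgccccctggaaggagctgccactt
Klf1 (chr8:84901732-84901981, plus strand): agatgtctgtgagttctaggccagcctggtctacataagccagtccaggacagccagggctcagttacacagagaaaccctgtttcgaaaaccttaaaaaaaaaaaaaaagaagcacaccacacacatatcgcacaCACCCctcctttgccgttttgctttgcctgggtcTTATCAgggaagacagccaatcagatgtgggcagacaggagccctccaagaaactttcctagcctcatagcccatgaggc
Kel (chr6:41704326-41704575, minus strand): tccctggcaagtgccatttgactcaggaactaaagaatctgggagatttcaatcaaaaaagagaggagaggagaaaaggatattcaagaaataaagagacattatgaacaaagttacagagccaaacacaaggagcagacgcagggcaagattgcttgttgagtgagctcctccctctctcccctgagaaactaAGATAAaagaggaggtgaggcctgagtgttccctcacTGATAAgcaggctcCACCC
Gata1 (chrX:7967911-7968160, minus strand): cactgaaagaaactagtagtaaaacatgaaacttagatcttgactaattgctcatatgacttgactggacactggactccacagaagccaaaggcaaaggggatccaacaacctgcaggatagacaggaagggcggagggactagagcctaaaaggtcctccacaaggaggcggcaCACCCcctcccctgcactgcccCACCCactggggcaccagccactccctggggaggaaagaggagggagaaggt
Alad (chr4:62519910-62520159, minus strand): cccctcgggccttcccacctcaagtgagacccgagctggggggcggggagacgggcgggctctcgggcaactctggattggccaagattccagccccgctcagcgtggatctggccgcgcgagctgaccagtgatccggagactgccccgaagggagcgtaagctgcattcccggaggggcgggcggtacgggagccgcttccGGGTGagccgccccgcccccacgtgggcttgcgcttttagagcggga
In the first of these, the AGATAA match on the opposite strand began 86 bases before the start of Alas2 and was followed by 3 CACCC matches at 40, 35 and 30 bases. Kel, the member with the largest fitted fall in wildtype livers, held an AGATAA match 56 bases and a TGATAA match 19 bases before its start. Other members differed from this. Cpox and Uros also held GATA matches, with 15.5% and 14.96% of their E17.5 level left in wildtype livers at 2 weeks. Trim58 and Add2 held none, with 0.0707% and 0.122% left. A relation of the matches to the size of the fall was not tested.

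Each of the 33 erythroid genes fell from E17.5 to 2 weeks, in wildtype as well as in Stab1-/- livers. In wildtype livers 33 of 33 members passed the test as lower (edgeR, Benjamini-Hochberg adjusted p under 0.05), where 37.0% of all 13369 genes tested were called lower and 34.9% higher. In Stab1-/- livers again 33 of 33 were lower, beside 36.8% of 13433 genes called lower and 35.7% called higher. The median log2 fold change of the members was -6.21 in wildtype and -6.25 in Stab1-/- livers, whereas the median over all genes tested was -0.01 in both. With library totals in place of TMM scaling the latter was -0.38 and -0.24, and the share of all calls that were higher went from 48.5% to 31.2% in wildtype and from 49.2% to 38.7% in Stab1-/- livers. The lowest E17.5 library lay above the highest 2-week library in RPKM for each of the 33 members, as it did for 48.0% of all genes tested in wildtype and 44.0% in Stab1-/- livers. Together the members took 1.67% to 2.11% of the reads in wildtype and 1.34% to 1.92% in Stab1-/- livers at E17.5, and 0.0791% to 0.0934% at 2 weeks over both genotypes. Their summed level was 7238 to 8530 RPKM in wildtype and 5495 to 8298 RPKM in Stab1-/- livers at E17.5, against 316 to 368.3 RPKM at 2 weeks.

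**Figure D1:**
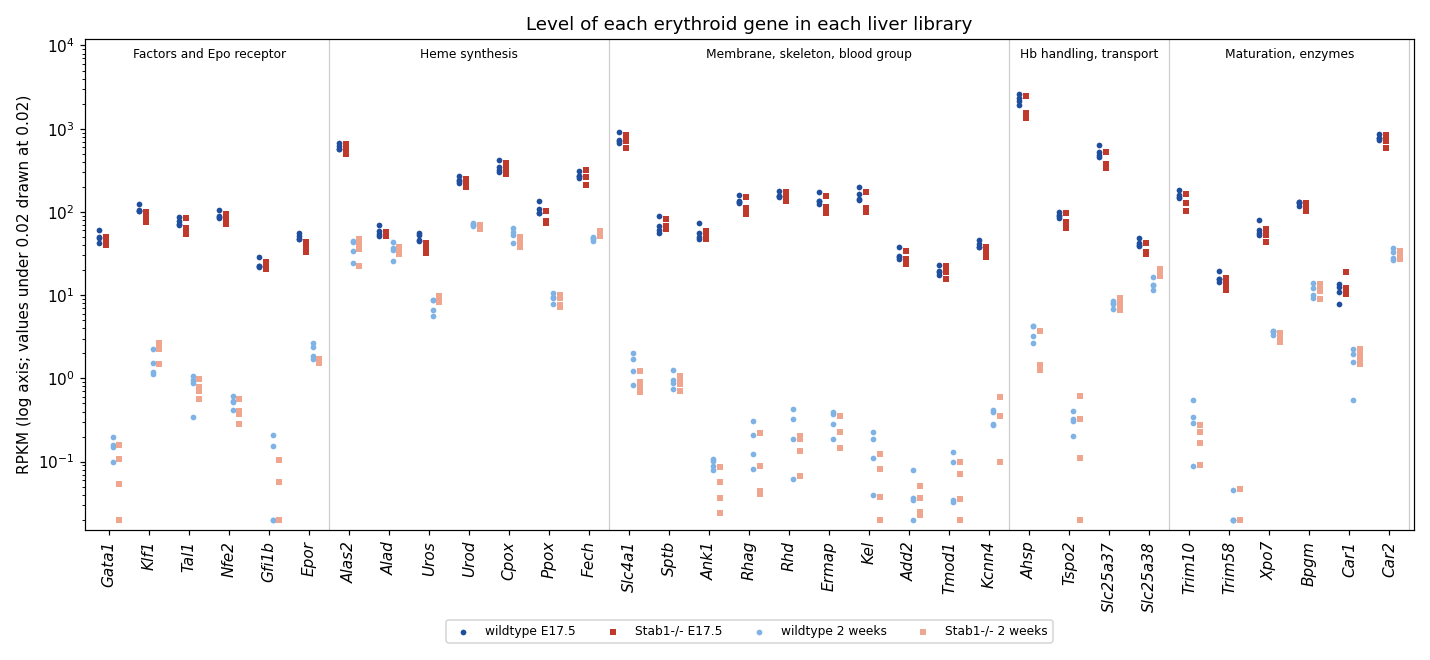
Level of each of the 33 erythroid genes in each of the 15 liver libraries, as RPKM on a log axis, grouped by role. Dark points are E17.5 and light points 2-week libraries, circles are wildtype and squares Stab1-/-, and values under 0.02 are drawn at 0.02. All dark points of a gene lie above all its light points, by far more for Kel than for Alad.

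The size of the fall differed widely between roles. The 10 membrane, skeleton and blood group genes had a median log2 fold change of -8.76 in wildtype and -9.43 in Stab1-/- livers, and the 6 genes of transcription factors and Epor had -6.64 and -6.84. Heme synthesis, with 7 enzymes, had the smallest median, at -2.33 and -2.06. Hemoglobin handling and mitochondrial transport spanned log2 values from -8.93 to -1.29 in wildtype, and the maturation genes and enzymes from -9.66 to -2.48. Under 1% of the mean E17.5 level was left at 2 weeks for 16 members in wildtype and 15 in Stab1-/- livers, while over 10% was left for 7 and 8 members. Percents left are of RPKM, which rests on library totals, whereas fitted log2 fold changes are TMM-scaled, so the measures differ. The members' median percent left in wildtype livers was 1.05% in RPKM and 1.34% with TMM-scaled levels.

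**Figure D2:**
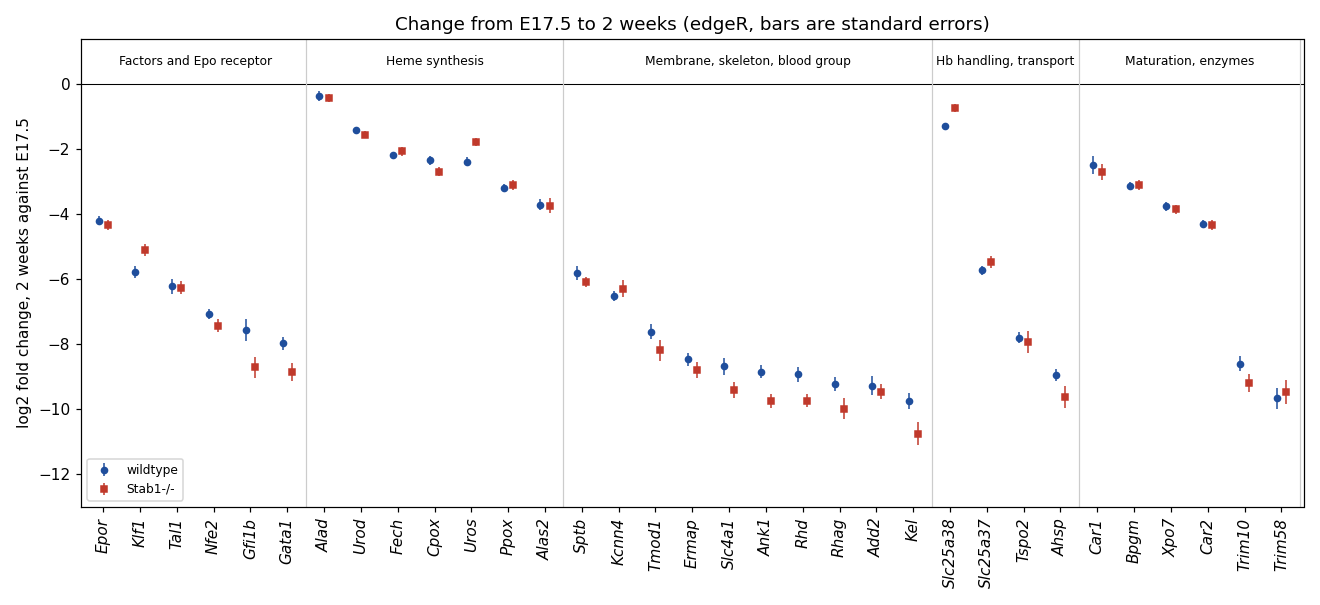
Fitted log2 fold change of each erythroid gene from E17.5 to 2 weeks in wildtype (circles) and Stab1-/- livers (squares), with bars for the standard error, ordered within each role. All points lie below 0, with Alad nearest to it and Kel farthest from it. Fitted values of genes with few reads at 2 weeks depend on the prior count of the fit.

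Among the transcription factors, Gata1, the master regulator of red cell genes, was at 49.3, 42.9, 48.6 and 61.2 RPKM in the wildtype and at 39.6, 46.0 and 50.2 RPKM in the Stab1-/- livers at E17.5. At 2 weeks it was at 0.151, 0.159, 0.0990 and 0.197 RPKM in wildtype and at 0.160, 0, 0.109 and 0.0540 RPKM in Stab1-/- livers, which rests on 12 and 6 reads in all. The stages were thus far apart in each library, and the genotypes overlapped at both. Counted over the group, the Gata1 level was 333.8-fold lower at 2 weeks in wildtype (95% interval 190.9 to 646.5, counting error only) and 571.8-fold lower in Stab1-/- livers (262.4 to 1559). Gfi1b, a repressor that acts beside Gata1, went from 23.7 ± 3.18 to 0.0902 ± 0.106 RPKM (SD, n = 4 each) in wildtype and from 23.0 ± 2.15 (SD, n = 3) to 0.0400 ± 0.0501 RPKM (SD, n = 4) in Stab1-/- livers. Nfe2, a factor for globin genes, had a log2 fold change of -7.07 (standard error 0.15) in wildtype and -7.43 (0.20) in Stab1-/- livers. Tal1, the partner of Gata1, fell from 77.0 ± 7.92 to 0.811 ± 0.323 RPKM (SD, n = 4 each) in wildtype livers, and 1.05% of its level was left.

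Klf1 and the erythropoietin receptor kept more of their level. Klf1 was at 103, 104, 106 and 124 RPKM in the wildtype and 76.4, 90.2 and 100.2 RPKM in the Stab1-/- livers at E17.5. At 2 weeks it was at 1.12, 1.18, 2.27 and 1.53 RPKM in wildtype and at 2.25, 1.48, 2.63 and 2.61 RPKM in Stab1-/- livers. The Stab1-/- libraries were thus all below the wildtype ones at E17.5, and the genotypes overlapped at 2 weeks. The log2 fold change with stage was -5.78 (standard error 0.19, adjusted p = 1.497e-10) in wildtype and -5.09 (0.18, adjusted p = 2.32e-09) in Stab1-/- livers. Epor was at 47.9, 51.5, 47.9 and 56.0 RPKM in wildtype and 32.8, 39.0 and 44.1 RPKM in Stab1-/- livers at E17.5, and at 2.66, 1.71, 2.37 and 1.85 RPKM and 1.55, 1.65, 1.70 and 1.68 RPKM at 2 weeks. It had the smallest fall of the factors, with 4.22% left in wildtype and 4.26% in Stab1-/- livers.

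In heme synthesis, Alas2, the erythroid enzyme of the first step, kept the smallest share of its E17.5 level. It was at 622, 569, 569 and 680 RPKM in wildtype and 494, 552 and 652 RPKM in Stab1-/- livers at E17.5, and at 34.4, 44.6, 43.1 and 24.4 RPKM and 22.5, 36.2, 47.5 and 40.1 RPKM at 2 weeks. Alas2 thus fell by 3.70 (standard error 0.18) on the log2 scale in wildtype and by 3.73 (0.23) in Stab1-/- livers. In RPKM 6.00% and 6.46% were left, and with TMM-scaled levels 7.64% and 7.60%. Only 3 of the other members had a higher level at 2 weeks in either genotype, as at E17.5, and at 2 weeks these were Urod, Cpox and Fech. Its lowest 2-week values were in wildtype replicate 4 and Stab1-/- replicate 1, the libraries in which each of the 5 globin genes with reads at 2 weeks was lowest within its genotype. Most members did not share this. Of the 20 members tested between genotypes at 2 weeks, wildtype replicate 4 was lowest in its genotype for 6 and highest for 3. Stab1-/- replicate 1 was lowest for 5 and highest for 6.

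Later steps of heme synthesis kept more of their level. Alad, the enzyme of the second step, was at 54.3, 51.6, 58.6 and 69.6 RPKM in wildtype and 52.0, 54.7 and 57.6 RPKM in Stab1-/- livers at E17.5, and at 37.3, 34.9, 25.5 and 43.2 RPKM and 31.4, 38.1, 35.6 and 35.4 RPKM at 2 weeks. No library of one stage overlapped the other, but the gap was small. The log2 fold change was -0.37 (standard error 0.15, adjusted p = 0.0453) in wildtype and -0.42 (0.11, adjusted p = 0.00500) in Stab1-/- livers. In RPKM 60.2% and 64.1% were left, and with TMM-scaled levels 76.7% and 75.3%. The wildtype call was lost with DESeq2 (adjusted p = 0.0519), without the filter (0.0619), with median-of-ratios scaling (0.0578) and without any one of wildtype 2-week replicates 1, 2 and 3 or wildtype E17.5 replicates 1, 3 and 4 (0.0632 to 0.150), over a range of 0.000947 to 0.150 in all alternatives. Scaled by TMM, a setting looked at after the data were seen, the wildtype stages overlapped for Alad and for no other member, while 35.3% of all genes were lower without overlap. Fech, which inserts iron into the ring, was at 273, 254, 274 and 312 RPKM in wildtype and 213, 263 and 317 RPKM in Stab1-/- livers at E17.5, and at 50.6, 47.5, 48.0 and 45.1 RPKM and 51.2, 54.9, 58.9 and 52.7 RPKM at 2 weeks. It retained 17.2% and 20.6% of its level. Urod had the highest 2-week level of all members, at 70.5 ± 2.21 RPKM in wildtype and 65.7 ± 2.71 RPKM in Stab1-/- livers (SD, n = 4 each), which was 29.2% and 29.4% of that at E17.5. Cpox, Uros and Ppox retained 15.5%, 14.96% and 8.53% in wildtype and 13.3%, 25.1% and 10.01% in Stab1-/- livers.

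The membrane genes were nearly absent at 2 weeks. Slc4a1, the anion exchanger of red cells, was at 712, 674, 737 and 903 RPKM in wildtype and 589, 702 and 831 RPKM in Stab1-/- livers at E17.5. At 2 weeks it was at 1.23, 2.00, 1.73 and 0.838 RPKM and at 0.774, 0.681, 1.24 and 0.896 RPKM, so that 0.192% and 0.127% were left. Its log2 fold change was -8.67 (standard error 0.26, adjusted p = 1.03e-10) in wildtype and -9.41 (0.24, adjusted p = 4.26e-10) in Stab1-/- livers. Kel, the Kell blood group protein, had 1 to 6 reads per wildtype and 0 to 3 reads per Stab1-/- library at 2 weeks, against 2681 to 5360 at E17.5. Counted over the group its level was 1125-fold lower in wildtype (95% interval 681.7 to 2010) and 2148-fold lower in Stab1-/- livers (986.7 to 5855). The Rhesus proteins Rhag and Rhd were at 138 ± 13.7 and 160 ± 13.2 RPKM in wildtype E17.5 livers and at 0.178 ± 0.0990 and 0.251 ± 0.161 RPKM at 2 weeks (SD, n = 4 each). Ank1, the ankyrin of the red cell skeleton, went from 56.7 ± 11.2 to 0.0949 ± 0.0133 RPKM, and Add2, an adducin, from 31.0 ± 4.99 to 0.0377 ± 0.0327 RPKM (SD, n = 4 each). Ermap, an erythroid membrane protein, and Tmod1, which caps actin filaments, had 0.219% and 0.378% of their wildtype level left. Sptb, the erythroid beta-spectrin, and Kcnn4, a calcium-activated potassium channel, fell least among the 10, with log2 fold changes of -5.80 (standard error 0.22) and -6.52 (0.16) in wildtype livers.

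Ahsp, the chaperone of free alpha-globin, had the highest E17.5 level of the 33 members in both genotypes. It was at 2339, 2635, 1912 and 2168 RPKM in wildtype and at 1354, 1530 and 2488 RPKM in Stab1-/- livers. At 2 weeks it was at 4.25, 4.29, 3.24 and 2.66 RPKM in wildtype and 3.69, 1.34, 1.47 and 1.25 RPKM in Stab1-/- livers, where replicate 1 lay within the wildtype range and the other 3 below it. The log2 fold change with stage was -8.93 (standard error 0.18) in wildtype and -9.62 (0.34) in Stab1-/- livers. Tspo2, the erythroid translocator protein, went from 90.9 ± 6.69 to 0.308 ± 0.0832 RPKM in wildtype livers (SD, n = 4 each). Mitoferrin (Slc25a37), which brings iron into mitochondria, retained 1.47% of its wildtype level, but the glycine carrier Slc25a38, which feeds the first step of heme synthesis, retained 31.8% in wildtype and 51.7% in Stab1-/- livers. Slc25a38 was at 42.8, 49.0, 38.9 and 40.5 RPKM in wildtype and 32.8, 31.2 and 41.8 RPKM in Stab1-/- livers at E17.5, and at 13.3, 16.3, 11.5 and 13.3 RPKM and 20.4, 17.9, 17.1 and 17.52 RPKM at 2 weeks.

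Genes of terminal maturation were split. Trim58, a ubiquitin ligase of nuclear expulsion, was at 14.3, 15.8, 15.6 and 19.4 RPKM in wildtype and 11.5, 13.6 and 15.9 RPKM in Stab1-/- livers at E17.5. At 2 weeks 1 read was counted in wildtype replicate 2 and 1 in Stab1-/- replicate 4, and 0 in the other 6 libraries. It was the only member with 3 or fewer reads in all 8 libraries, and its ratio was 1485 in wildtype (95% interval 266.1 to 58700) and 1193 in Stab1-/- livers (213.6 to 47180). Trim10, another ligase of this family, had 2 to 13 reads per library at 2 weeks against 2405 to 4405 at E17.5. Xpo7, a nuclear exporter, retained 5.76% in wildtype and 6.01% in Stab1-/- livers.

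Enzymes of the mature red cell differed in what was left. Car2, a carbonic anhydrase that other tissues also make, was at 772, 725, 780 and 870 RPKM in wildtype and 591, 715 and 835 RPKM in Stab1-/- livers at E17.5, and at 33.4, 37.3, 26.2 and 27.9 RPKM and 31.0, 34.0, 30.0 and 27.1 RPKM at 2 weeks, so that 3.96% and 4.27% were left. Bpgm, which makes the bisphosphoglycerate that loosens oxygen from hemoglobin, was at 127, 117, 130 and 133 RPKM and 103, 116 and 129 RPKM at E17.5, and at 9.98, 13.9, 12.2 and 9.29 RPKM and 9.02, 11.3, 13.7 and 12.1 RPKM at 2 weeks, so that 8.93% and 9.97% were left. Its lowest 2-week values were in the same pair of libraries as those of Alas2, which did not hold for most members tested. Car1, the other carbonic anhydrase, was low already at E17.5, at 11.0, 12.6, 7.78 and 13.8 RPKM in wildtype and 10.4, 12.3 and 19.1 RPKM in Stab1-/- livers. At 2 weeks it was at 2.24, 1.94, 1.57 and 0.549 RPKM and 1.70, 1.502, 2.25 and 1.97 RPKM, and its log2 fold change was -2.48 (standard error 0.29) in wildtype and -2.69 (0.25) in Stab1-/- livers.

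Other genes of the same pathways were taken from lists of related genes, and are set beside 37.0% of all genes called lower and 34.9% higher in wildtype livers. All 10 other erythroid factors and cofactors were lower at 2 weeks in wildtype livers, from Hemgn, an erythroid nuclear protein, at 207 ± 30.4 against 0.252 ± 0.182 RPKM, to Ldb1, a widely made cofactor, with a log2 fold change of -1.07 (standard error 0.11). All 9 other membrane genes were lower, and the smallest fall was that of the water channel Aqp1 at a log2 fold change of -0.24 (adjusted p = 0.0499). Of the 11 other heme and iron genes 9 were lower, led by the mitochondrial transporter Abcb10 at -3.93, and 1 was higher. The latter was Alas1, the liver form of the first enzyme, which rose from 16.5 ± 1.21 to 87.4 ± 37.1 RPKM (SD, n = 4 each) in wildtype and from 15.1 ± 2.04 (SD, n = 3) to 65.9 ± 14.4 RPKM (SD, n = 4) in Stab1-/- livers. Alas2 and Alas1 thus changed in opposite directions. Of 9 other maturation genes 8 were lower, with E2f2 at -5.61, while Ulk1, a kinase of autophagy, was at -0.04 (adjusted p = 0.876). Erythropoietin signalling moved both ways, with 5 of 9 genes tested lower, led by the erythroid hormone gene Fam132b at -4.09, and 3 higher, led by the feedback inhibitor Socs2 at 3.26.

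All 8 globin genes listed were lower at 2 weeks in both genotypes, beside 37.0% of all genes in wildtype and 36.8% in Stab1-/- livers. Their reads took 1.36% to 1.82% of a library at E17.5 and 0.0249% to 0.0954% at 2 weeks, and since adult globin genes have near-identical copies, the split of reads between copies is uncertain. The embryonic globins Hbb-bh1, Hbb-y and Hba-x had 38 to 130 reads in each E17.5 library and 0 in all 2-week libraries. Against 3 reads per library, the smallest level taken as shown, Hbb-bh1 was at least 21.9-fold lower in wildtype and at least 24.1-fold lower in Stab1-/- livers. With these genes at their bound the median log2 fold change of the globins was -4.48 in wildtype and -4.60 in Stab1-/- livers. Hbb-bs, an adult beta-globin, retained 4.73% in wildtype and 6.65% in Stab1-/- livers.

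Markers of other cells also moved with stage, and their part in the fall of the erythroid genes was not tested. Lower at 2 weeks in each genotype were 8 of 8 megakaryocyte, 8 of 8 granulocyte and 8 of 8 proliferation markers, 6 of 8 B lymphocyte markers and 3 of 6 progenitor markers. Of all genes tested 37.0% were called lower and 34.9% higher in wildtype, and 36.8% and 35.7% in Stab1-/- livers. The megakaryocyte markers, among which Itga2b had the smallest fall with a wildtype log2 fold change of -2.90, summed to 220.2 to 258 RPKM in wildtype and 177 to 221 RPKM in Stab1-/- livers at E17.5, and to 7.22 to 12.9 RPKM and 11.6 to 15.3 RPKM at 2 weeks. Granulocyte markers, from Mpo at -7.25 to Prtn3 at -5.61, summed to 5243 to 8435 RPKM in wildtype and 3708 to 4018 RPKM in Stab1-/- livers at E17.5, and to 31.8 to 148 RPKM and 190.2 to 422 RPKM at 2 weeks. Those of proliferation, from Mki67 at -4.39 to Cdk1 at -2.19, summed to 512 to 652 RPKM in wildtype and 456 to 582 RPKM in Stab1-/- livers at E17.5, and to 39.0 to 54.5 RPKM and 21.6 to 37.2 RPKM at 2 weeks. These 3 lists were thus lower at 2 weeks in every library. B lymphocyte markers, from Igll1 at -4.24 to Ms4a1 at 1.92, summed to 51.5 to 60.3 RPKM in wildtype and 31.6 to 57.2 RPKM in Stab1-/- livers at E17.5, and to 9.30 to 15.2 RPKM and 8.41 to 12.2 RPKM at 2 weeks. Progenitor markers, from Flt3 at -2.08 to Hlf at 1.26, summed to 23.5 to 25.2 RPKM in wildtype and 20.4 to 26.0 RPKM in Stab1-/- livers at E17.5, and to 15.5 to 21.4 RPKM and 18.0 to 21.8 RPKM at 2 weeks. Hepatocyte markers went the other way, with 6 of 8 higher in wildtype and 5 in Stab1-/- livers and 0 lower in either. They ranged from Fgb at -0.01 to Cps1 at 1.96 and summed to 75068 to 84939 RPKM in wildtype and 81563 to 95754 RPKM in Stab1-/- livers at E17.5, and to 109977 to 135242 RPKM and 85839.9 to 108482 RPKM at 2 weeks. Of 8 macrophage markers 2 were higher and 2 lower in wildtype, from Vsig4 at 2.87 to Adgre1 at -0.49, and 4 higher and 3 lower in Stab1-/- livers, and they summed to 319.9 to 399.5 RPKM in wildtype and 344 to 418 RPKM in Stab1-/- livers at E17.5, and to 283 to 417 RPKM and 391 to 502 RPKM at 2 weeks. Of 8 endothelial markers 6 were higher and 1 lower in wildtype, from Clec4g at 2.56 to Lyve1 at -0.99, and 2 higher and 2 lower in Stab1-/- livers, and they summed to 99.4 to 111 RPKM in wildtype and 106 to 106 RPKM in Stab1-/- livers at E17.5, and to 151 to 184 RPKM and 156 to 168 RPKM at 2 weeks. In each of these 8 lists 0 markers were at 0 in all libraries of a stage.

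The study compared the genotypes at each stage, and at E17.5 no erythroid gene was called between Stab1-/- and wildtype livers. Of the 33 members 0 passed (edgeR, Benjamini-Hochberg), beside 0.366% of 13388 genes tested, and 4 had an unadjusted p under 0.05, all lower in Stab1-/- livers, beside 12.9% of all genes. DESeq2 called 0 as well. The members' median log2 fold change was -0.09, with single values from -0.37 for Uros to 0.37 for Car1, and that over all genes was 0.00. In RPKM the mean of 31 of 33 members was lower in Stab1-/- livers, beside 62.4% of all genes. Without Stab1-/- replicate 1 it was lower for 25 members, beside 70.1% of all genes. Without wildtype replicate 2 or 1 it was lower for 32 and 31 members, beside 62.4% and 64.3% of all genes. Groups did not overlap for Klf1, Epor, Uros and Kcnn4, all lower in Stab1-/- livers, where 12.2% of all genes tested did not overlap in RPKM. These 4 did not overlap either without Stab1-/- replicate 1, where the share of all genes was 20.8%. Scaled by TMM, Epor and Uros alone among the members did not overlap, beside 10.9% of all genes.

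**Figure D3:**
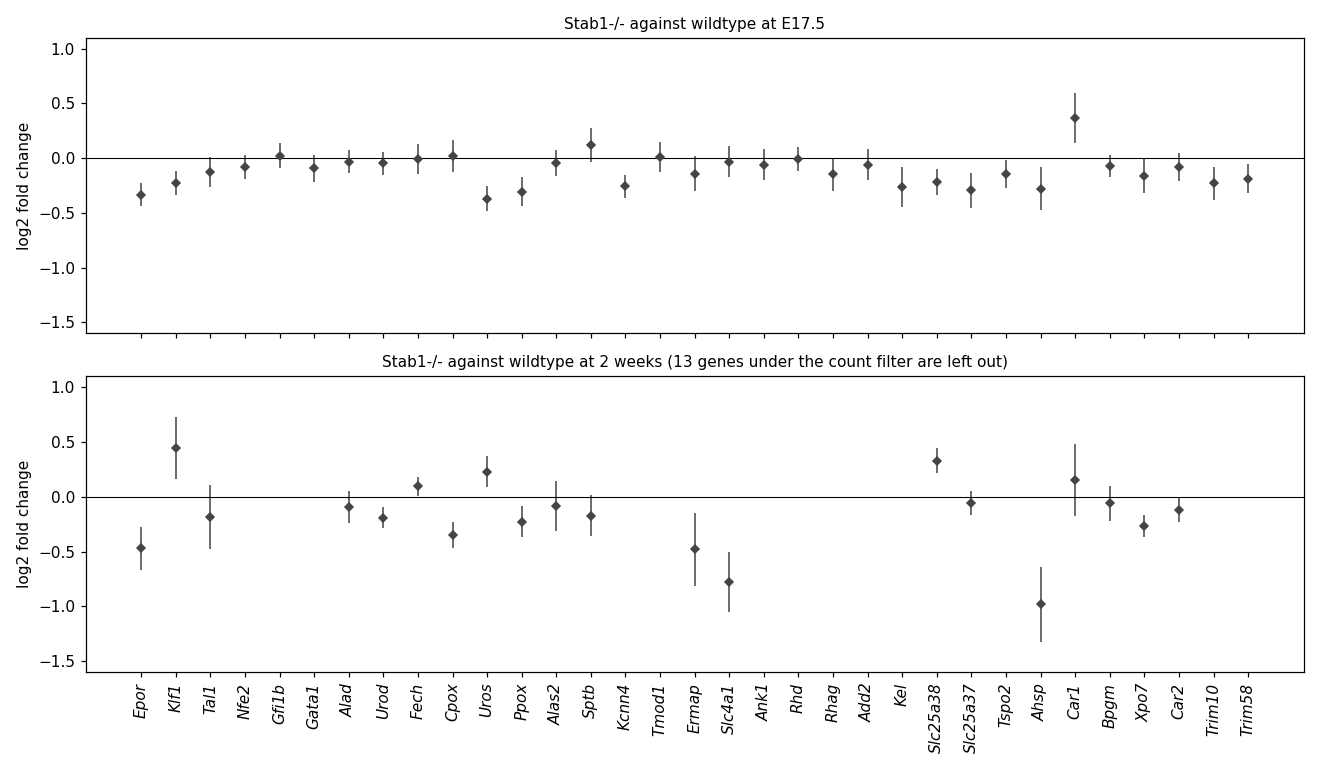
Fitted log2 fold change of each erythroid gene between Stab1-/- and wildtype livers at E17.5 (upper panel, 33 genes) and at 2 weeks (lower panel, 20 genes that passed the filter on low counts), with bars for the standard error. Values at E17.5 lie between -0.37 and 0.37, and at 2 weeks between -0.98 and 0.45, and none passed the adjusted threshold.

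The highest and lowest RPKM values of the members at E17.5 lay mostly in the same libraries. Wildtype replicate 4 held the highest value of the stage for 28 of 33 members and Stab1-/- replicate 1 held the lowest for 28. With TMM scaling, looked at after the data were seen, these were 20 highest and 29 lowest values, and Stab1-/- replicate 3 held 10 of the highest. The same counts over all genes were not made, so that the pattern is not shown to be particular to the erythroid genes. Replicate 3 of the Stab1-/- livers was the highest of the 3 Stab1-/- libraries for all 20 members that were also tested at 2 weeks. Stab1-/- replicate 1 is the library with 124 rows far above the others, and the part of those rows in its low values was not tested. Without it, the members' median log2 fold change between genotypes was 0.01 in place of -0.09, and without wildtype replicate 2 it was -0.14, with 0 members called in either case. Without wildtype replicate 1 it was -0.11, again with 0 called. The stage comparisons held 33 of 33 calls without Stab1-/- replicate 1 or wildtype replicate 2, and 32 without wildtype replicate 1, where Alad was lost.

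**Figure D4:**
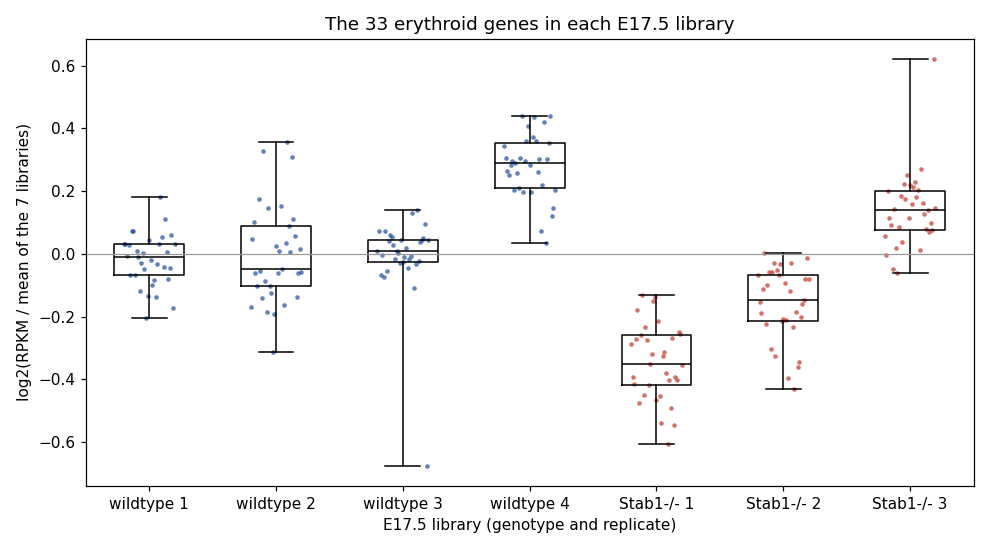
Level of the 33 erythroid genes in each E17.5 library, as the log2 ratio of RPKM to the gene's mean over the 7 libraries; points are genes, boxes span the quartiles with the median, and whiskers reach the lowest and highest gene. All points of wildtype replicate 4 lie above 0 and all points of Stab1-/- replicate 1 lie below 0.

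At 2 weeks 20 of the 33 members had enough reads to be tested, and 0 were called between the genotypes (edgeR, Benjamini-Hochberg), beside 2.67% of 12716 genes. The 13 members under the count filter there are Gata1, Nfe2, Gfi1b, Ank1, Rhag, Rhd, Kel, Add2, Tmod1, Kcnn4, Tspo2, Trim10 and Trim58. Their reads over the 4 libraries of a genotype ranged from 1 for Trim58 to 39 for Nfe2 in wildtype livers. Of the 20 tested, 6 had an unadjusted p under 0.05, beside 23.4% of all genes. DESeq2, which fitted all 33, called 0, as did edgeR without the filter. Since DESeq2 can leave genes with few reads without an adjusted p, not all 33 need have been open to a call there. The largest fitted differences were those of Ahsp at -0.98 (standard error 0.34, adjusted p = 0.123) and Slc4a1 at -0.78 (0.27, adjusted p = 0.122), both with overlapping groups. The members' median log2 fold change was -0.15, beside -0.01 over all genes. Epor lay lower and Fech and Slc25a38 lay higher in all Stab1-/- than in all wildtype libraries in RPKM, where 14.9% of all genes tested did not overlap. With TMM scaling 0 of the 33 members failed to overlap at 2 weeks, beside 13.7% of all genes.

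Epor was thus below wildtype in each Stab1-/- library of both stages in RPKM, but without passing the adjusted threshold. The log2 fold change was -0.33 (standard error 0.11, adjusted p = 0.256) at E17.5 and -0.47 (0.20, adjusted p = 0.173) at 2 weeks. At 2 weeks the gap was narrow, with the highest Stab1-/- library at 1.70 and the lowest wildtype library at 1.71 RPKM. Of 8 genes of erythropoietin signalling tested at 2 weeks, only Cish, a feedback inhibitor, was called, beside 2.67% of all genes. Its level at 2 weeks was 15.4 ± 3.18 RPKM in wildtype livers and 6.13 ± 3.30 RPKM where Stab1 was absent (SD, n = 4 each). The log2 fold change was -1.40 (standard error 0.30, edgeR adjusted p = 0.0323), against 0.15 (0.24, adjusted p = 0.812) at E17.5. Wildtype livers held Cish at 14.4 ± 3.82 RPKM (SD, n = 4) at E17.5, where Epor was far higher than at 2 weeks. A relation of Cish to Epor was not tested. Called lower in Stab1-/- livers at 2 weeks among the cell markers were Top2a (-0.71, adjusted p = 0.0330) and Ccna2 (-0.86, adjusted p = 0.0208) of proliferation and Kdr (-0.43, adjusted p = 0.0476) of endothelium. Summed granulocyte markers lay higher in each Stab1-/- than in each wildtype library at 2 weeks and lower at E17.5, and summed proliferation and hepatocyte markers lay lower at 2 weeks, in the RPKM ranges given above. Of single genes, 14.9% of all tested at 2 weeks and 12.2% at E17.5 did not overlap in RPKM. Between genotypes 0 of 7 granulocyte markers tested were called at 2 weeks and 0 of 8 at E17.5. Of the 8 hepatocyte markers 0 were called at 2 weeks. The part of these markers in the values of the erythroid genes was not tested.

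Whether the genotype difference itself changed with stage was tested by the interaction, the log2 fold change at E17.5 minus that at 2 weeks. No member was called (0 of 33, edgeR, Benjamini-Hochberg), beside 1.81% of 13885 genes, and 4 had an unadjusted p under 0.05, beside 23.2% of all genes. Slc25a38 had -0.58 (standard error 0.17, adjusted p = 0.0726) and Uros -0.63 (0.19, adjusted p = 0.0813). Both were called with DESeq2, at adjusted p = 0.0418 and 0.0459, where DESeq2 called 1058 of 19242 genes fitted. Slc25a38 was 0.22 lower on the log2 scale in Stab1-/- livers at E17.5 and 0.33 higher at 2 weeks, and neither difference passed by itself. Uros was at 44.2, 55.2, 45.8 and 52.5 RPKM in wildtype and 32.2, 35.6 and 42.1 RPKM in Stab1-/- livers at E17.5, and at 8.70, 8.74, 5.56 and 6.57 RPKM and 9.74, 8.25, 9.15 and 9.64 RPKM at 2 weeks. The Stab1-/- libraries were thus below all wildtype ones at E17.5, and overlapped them at 2 weeks with a higher mean. Klf1, at -0.71 (0.29, adjusted p = 0.159), had the same order of means.

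**Figure D5:**
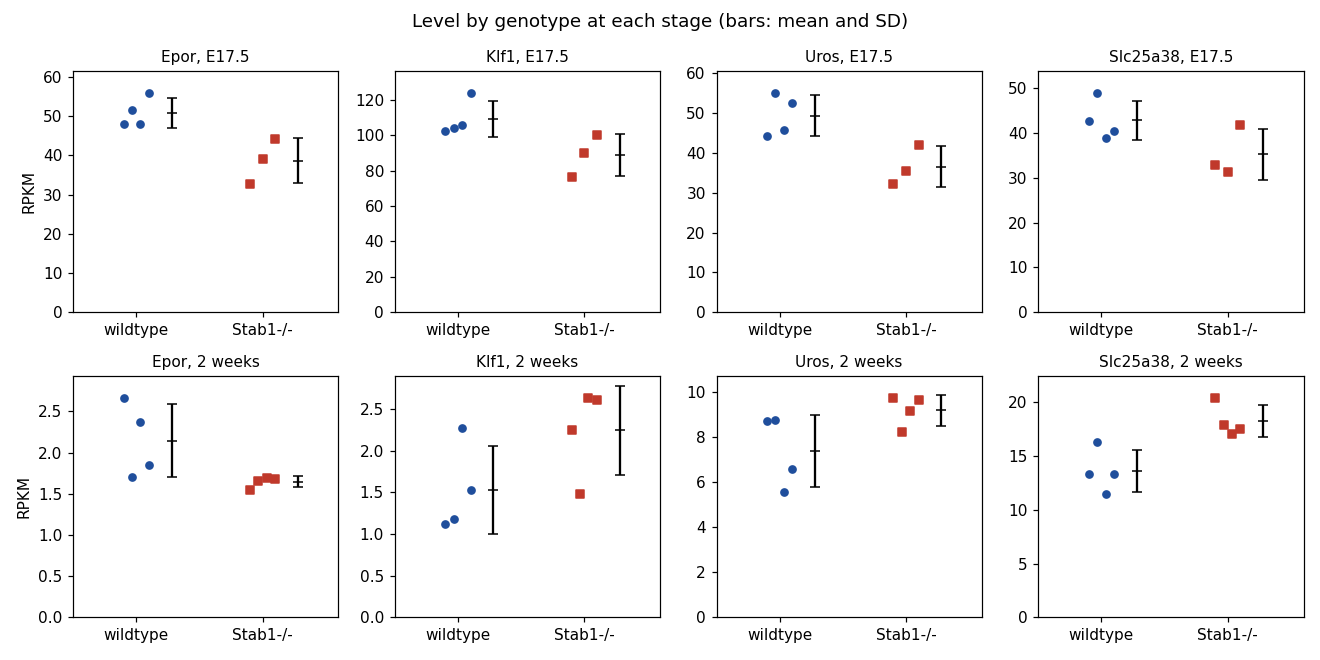
RPKM of Epor, Klf1, Uros and Slc25a38 in each library by genotype, at E17.5 (upper row) and 2 weeks (lower row), with the mean and SD beside the points and each axis starting at 0. Epor means are lower in Stab1-/- livers at both stages, whereas the means of Klf1, Uros and Slc25a38 are lower at E17.5 and higher at 2 weeks.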

How the data were processed

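RNA of 15 whole livers was sequenced by the authors, in libraries made by Illumina protocols at a sequencing provider. The deposited table holds, for each library and Entrez gene, read counts (unique alignments), a coverage value in percent of each gene (not used here) and the RPKM that the authors derived from the counts. Aligner, genome build, annotation and strand setting are not given in the sources used here. Columns of per-sample values left unused because no label matched them number 0. The RPKM values recompute from counts, length and library total. A dash was read as 0 reads.

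Counts were tested with the quasi-likelihood test of edgeR 4.0.16 (R 4.3.3) after TMM scaling, on genes kept by filterByExpr (minimum count 10, minimum total 15), 2-sided, with Benjamini-Hochberg adjustment over all genes tested and a threshold of 0.05. Each comparison was fitted on its own groups, and the interaction on all 15 libraries. Alternatives used DESeq2 1.42.0, limma 3.58.1 on log2(RPKM + 0.1), other scalings, no filter, a replicate block and each library left out. The pipeline was tested on simulated data. Intervals of read ratios are exact and, like the floor of 3 reads, cover counting error only. The labels name separate samples but not litters, so p-values measure the spread between these samples. Replicates differed from each other beyond sampling noise.

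The members, lists and per-library genes were chosen with earlier results of these data known. All 33 members were named, with values in every library for 12 of them and for those a result turned on (Uros and Slc25a38 were added after their values were seen). From each other list the genes with the largest fall and the largest rise or smallest fall in wildtype livers were named, and those called between genotypes. The gene with the largest fall is not reported here for the membrane and megakaryocyte lists.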

Additional observations from a re-analysis of the deposited data

Results flagged for a closer look

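In 5 of 102 groups of 4 libraries, 1 library lay far from the other 3, where the rule flags about 1 in 20 groups of normally distributed values (5.1 of 102). Some groups here hold counts of 0 and 1 read, and the groups share libraries. These counts thus cannot decide whether the flags are due to chance. Klf1 was at 124 RPKM and Gfi1b at 28.5 RPKM in wildtype E17.5 replicate 4. Ahsp was at 3.69 RPKM in Stab1-/- replicate 1 at 2 weeks. Trim58 was at 0.0460 RPKM in wildtype replicate 2 and at 0.0468 RPKM in Stab1-/- replicate 4 at 2 weeks, with 1 read each against 0 in the rest of the group.

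The genotype difference at E17.5 minus that at 2 weeks passed the interaction test (edgeR, Benjamini-Hochberg) for 5 of 118 genes tested from the related lists (4.24%), beside 1.81% of all genes. It was -2.46 on the log2 scale for S100a9, -2.55 for S100a8 and -1.80 for Camp, which are granulocyte markers, 0.68 for the endothelial marker Kdr, and 0.63 for Hmox1, which breaks down heme. With each of the 15 libraries left out in turn, the call held in 11 fits for Kdr, 7 for S100a8, 7 for Camp, 6 for S100a9 and 3 for Hmox1, with adjusted p up to 0.109.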

How the results depend on the processing

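The members called lower with stage numbered 32 or 33 in wildtype and 33 in Stab1-/- livers in all alternatives run, with Alad the gene lost. The median percent of the E17.5 level left over the members in wildtype livers was 1.05%, against 1.34% with TMM-scaled levels and 0.947% to 1.17% with single libraries left out. In the interaction 2 members were called with DESeq2 (Uros and Slc25a38), 1 with limma (Slc25a38) and 0 to 2 with single libraries left out, and the cause was not tested. Over all genes DESeq2 called 1058 of 19242 there, limma 291 of 13885, and the fits without single libraries 30 to 684. Between genotypes 0 members were called at either stage in all alternatives run. With library totals the share of all calls that were higher went from 53.1% to 40.7% at E17.5, from 35.0% to 53.7% at 2 weeks and from 55.8% to 28.4% in the interaction. Same-numbered libraries correlated in their deviations by -0.163 to 0.167, and differently numbered ones by -0.217 to 0.235. With so few libraries this cannot decide whether replicate numbers pair the samples. A fit with the replicate block called 33 and 33 members with stage, 0 at E17.5, 0 at 2 weeks and 0 in the interaction. Over all genes, 49 were called between genotypes at E17.5, 235 with DESeq2, 23 with the block and 27 to 46 with single libraries left out. At 2 weeks these were 340, 861, 1181 and 116 to 648, with 219 by limma and 703 with all libraries in 1 fit. In the interaction they were 251, 1058, 1088 and 30 to 684. The filter on low counts left 20 of 33 members in the genotype comparison at 2 weeks. DESeq2, edgeR without the filter and the fit of all libraries fitted 33 and called 0.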
